A study of Homo sapiens with 6 samples.

Results

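The genes described here control passage from G1 into S phase: the D-type cyclins CCND1, CCND2 and CCND3 with their kinases CDK4 and CDK6, the E-type cyclins CCNE1 and CCNE2, the CDK inhibitors CDKN1B and CDKN2A, and the retinoblastoma gene RB1. They are a list of 10 gene symbols, chosen by name with earlier results of these data known. All 10 were found among the 38126 Ensembl gene IDs of the deposited tables. The data are 6 RNA-seq libraries of HK-2, a cell line derived from human kidney proximal tubule. 3 libraries came from cells labelled untreated and 3 from cells given phosphoramidon, an inhibitor of zinc metallopeptidases, for 24 h. Both groups were grown in keratinocyte serum-free medium with bovine pituitary extract and EGF and were near confluence when treatment began. The labels give no dose and no vehicle, they do not explain the letters CSE in the titles of the untreated libraries, and they do not say whether replicates were separate cultures, so that p-values speak only of the spread from library to library, which may be technical.

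In the textbook scheme, growth factors raise the D-type cyclins, which switch on CDK4 and CDK6. These kinases phosphorylate RB, the product of RB1, and so release E2F transcription factors that switch on S-phase genes, the E-type cyclins among them. CDKN2A encodes p16, which blocks CDK4 and CDK6, and from a second promoter and reading frame the p53 activator ARF, while CDKN1B encodes p27, which restrains CDK2 complexes. HK-2 cells were immortalised with papillomavirus E6 and E7 genes, and the E7 protein binds and inactivates RB. E7 was not measured here.

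Levels are in FPKM, fragments per gene length and library size, as deposited. Fold changes are from limma on log2(FPKM + 0.1) after scaling the libraries, and a gene was called where its p-value, adjusted over all 16175 genes tested (Benjamini-Hochberg), was below 0.05. The totals of assigned fragments, inferred from the deposited FPKM, were 18690100 to 24919568 per library. Fragments recovered gene by gene summed to slightly more, 18705476 to 24939329. Between 246 and 8837 of them fell on each of the 10 genes per library. Of 12 proximal tubule markers, 1 (PDZK1) had a mean of at least 1 FPKM, and SLC22A6 and SLC22A8 were listed at 0 in every library. Of 7 epithelial markers 6 reached that level. The summed levels of 4 endothelial and 4 immune markers stayed below 0.25 FPKM in every library. Of 7 fibroblast markers 2 (LUM and COL1A1) had a mean of at least 1 FPKM. COL1A2, PDGFRA and THY1 had untreated means of 0.007, 0.006 and 0.05 FPKM. The summed level of the 7, nearly all of it from LUM and COL1A1, was 60.9 to 65.7 FPKM in untreated and 23.5 to 25.01 FPKM in treated libraries. That of the epithelial markers was 460 to 499 and 323 to 347 FPKM; the keratins KRT7, KRT8, KRT18 and KRT19 fell, and EPCAM, CLDN1 and CDH1 did not pass. That of the proximal tubule markers was 20.5 to 23.2 and 29.97 to 33.8 FPKM, through PDZK1, which rose (20.8 to 30.6 FPKM), while SLC34A1 (log2 fold change -0.80) and GGT1 (-0.62), both under 1 FPKM, fell. The part of these shifts in the results below was not tested, and in bulk RNA fewer cells of a type and less RNA per cell cannot be told apart.

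After phosphoramidon the genes of the cyclin D-CDK4/6 module, CCND1, CCND2, CCND3, CDK4 and CDK6, all fell, and so did CDKN2A. Their sizes differed: in that order the fold changes lay at percentiles 1.95, 1.38, 17.0, 9.52, 19.8 and 6.15 of all genes tested. CDKN1B and CCNE2 rose. CCNE1 and RB1 did not pass the test. The changes ran from 1.96-fold lower for CCND2 to 1.65-fold higher for CCNE2. All 10 genes were tested, and 2 were called higher and 6 lower, with a median log2 fold change of -0.27. Among all genes tested 33.6% were called, 15.6% higher and 18% lower (2529 and 2904 genes, or 3647 and 2169 without scaling factors), and the median was 0.01. The FPKM values of the groups did not overlap in any of the 10 genes, against 49.7% of all genes tested. The exact two-sided permutation test on FPKM gave p = 0.1 for each of the 10, the smallest value that 3 against 3 libraries allow.

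**Figure D1:**
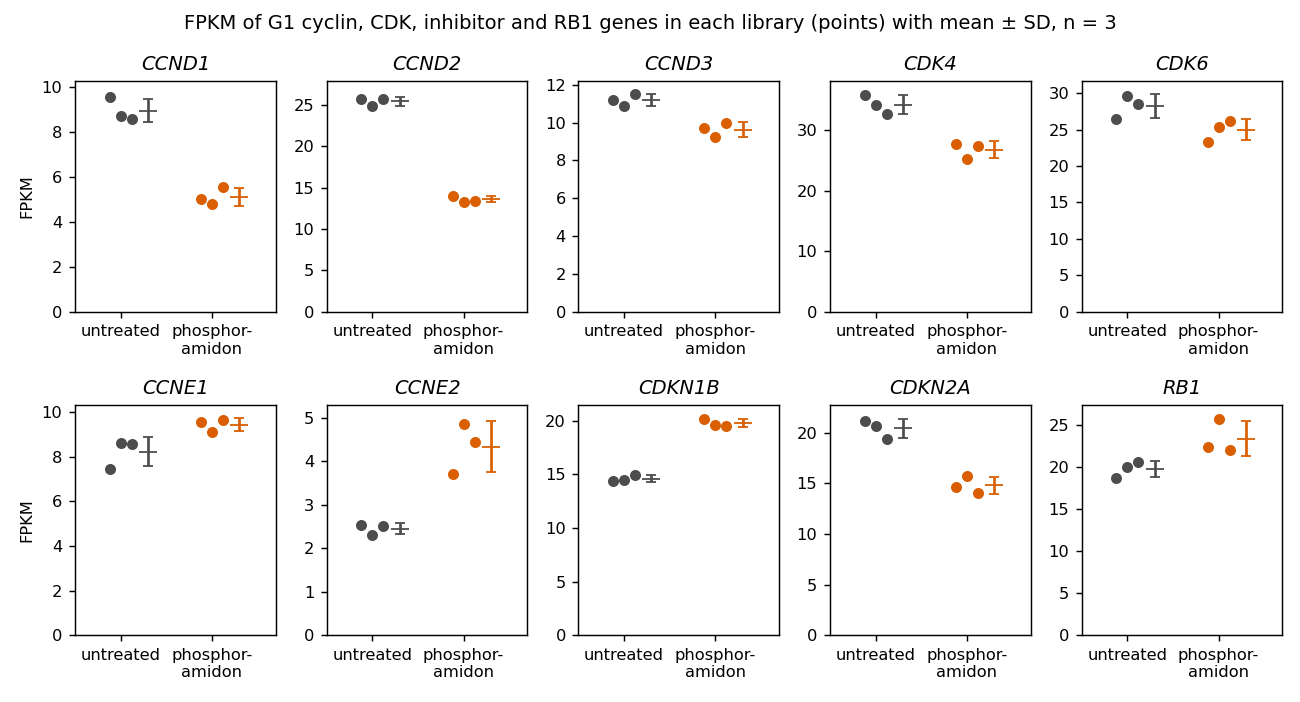
Deposited FPKM (y axes, from 0) of the 10 genes in 3 untreated (grey) and 3 phosphoramidon (orange) libraries, with mean ± SD beside the points. CCND2 shows the widest gap relative to its spread, and for CCNE1 the lowest treated library (9.10 FPKM) lies close to the highest untreated one (8.63 FPKM).

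CCND2 was the most abundant D-type cyclin per length in this line. CCND2 (ENSG00000118971, chromosome 12, 4273772 to 4305350, GRCh38) measured 25.7, 24.9 and 25.7 FPKM in untreated replicates 1 to 3 and 14.0, 13.3 and 13.4 FPKM in phosphoramidon replicates 1 to 3. Every treated library lay far below every untreated one, and the spread within each group was small (25.4 ± 0.503 against 13.6 ± 0.385 FPKM, SD, n = 3). The log2 fold change of CCND2 was -0.97 ± 0.05 (SE), with adjusted p = 5.6e-06. CCND2 was also the 1 gene of the 10 that passed a test against a change of 1.5-fold (limma's treat, adjusted p = 0.0034), which 0.804% of all genes passed, 0.655% in that direction. Its fold change lay at percentile 1.38 of all genes tested. Of the exon bases of CCND2, 13.8% are shared with AC008012.1 on the same strand, which has no value in the deposited data. The part of shared reads in the CCND2 value was not tested.

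CCND1, the D-type cyclin best known as a sensor of EGF and RAS signalling (ENSG00000110092, chromosome 11, 69641087 to 69654474), measured 9.54, 8.72 and 8.59 FPKM in untreated and 5.01, 4.79 and 5.53 FPKM in treated libraries. Even the highest treated library lay well below the lowest untreated one. On the log2 scale the fold change was -0.87 ± 0.07 (SE, adjusted p = 6.3e-05), and the test against 1.5-fold gave adjusted p = 0.13. Of the exon bases of CCND1, 10.3% are shared with LTO1 on the opposite strand, which had a log2 fold change of -0.15 ± 0.11 (SE, adjusted p = 0.34). Whether counting used strand is not given in the sources used here.

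CCND3, the D-type cyclin prominent in lymphoid cells (ENSG00000112576, chromosome 6, 41934933 to 42050357), had the smallest fold change of the D-type cyclins, though differences between the genes were not tested. It measured 11.2, 10.9 and 11.5 FPKM in untreated and 9.71, 9.21 and 9.96 FPKM in treated libraries, which did not overlap, and its log2 fold change was -0.29 ± 0.05 (SE, adjusted p = 0.0030).

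The make-up of the D-type pool differed between the groups. The summed level of these cyclins was 46.5, 44.5 and 45.8 FPKM in untreated and 28.8, 27.3 and 28.9 FPKM in treated libraries, so that 62.2% of the untreated mean was left. CCND2 made up 55.8 ± 0.434% of the sum in untreated and 48.0 ± 1.36% in treated libraries, and CCND3 24.6 ± 0.472% and 34.0 ± 0.397%. The CCND1 share was 19.6 ± 0.892% and 18.0 ± 0.960%, with 1 treated library (19.1%) inside the untreated range. In treated libraries CCND3 was thus nearer to CCND2 in level than in untreated ones, 9.63 against 13.6 FPKM. These sums and shares carry no test, since the genes were chosen with their results known.

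**Figure D2:**
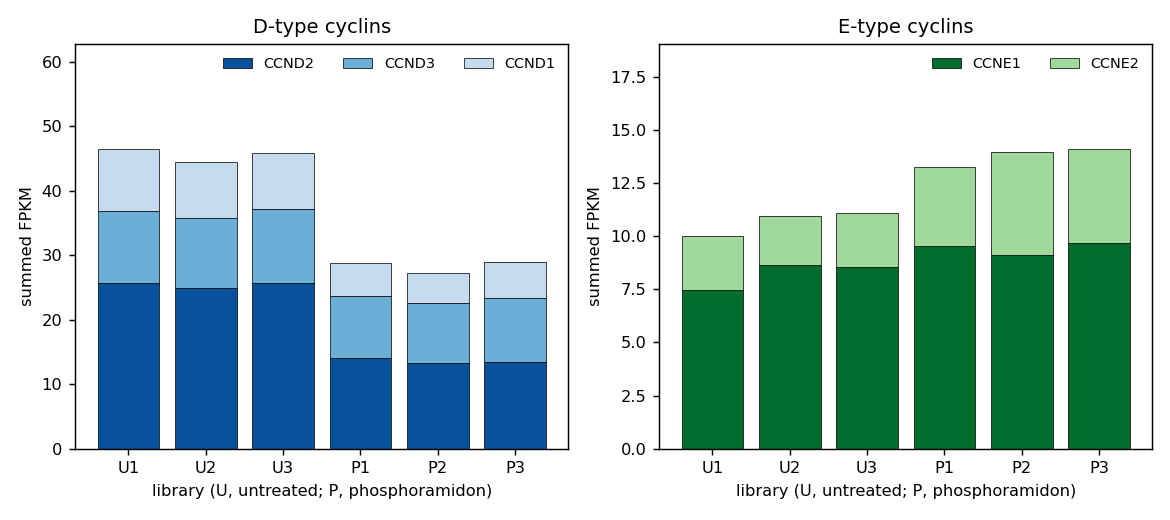
Summed FPKM (y axis) of the D-type cyclins (left) and E-type cyclins (right) in each library, stacked by gene; U1 to U3 are untreated and P1 to P3 phosphoramidon replicates. The D-type bars drop from 44.5 to 46.5 FPKM to 27.3 to 28.9 FPKM, mostly through CCND2, while the E-type bars lie at 10.01 to 11.1 and 13.3 to 14.1 FPKM.

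CDK4 and CDK6, the catalytic partners of the D-type cyclins, were the highest of the 10 genes per length and both fell. CDK4 (ENSG00000135446, chromosome 12, 57747727 to 57756013) measured 35.8, 34.2 and 32.7 FPKM in untreated and 27.8, 25.2 and 27.5 FPKM in treated libraries. For CDK4 the log2 fold change was -0.42 ± 0.06 (SE, adjusted p = 7.0e-04). CDK6 (ENSG00000105810, chromosome 7, 92604921 to 92836594) measured 26.4, 29.7 and 28.5 FPKM in untreated and 23.4, 25.3 and 26.2 FPKM in treated libraries. Its groups were separated only narrowly, by 26.4 against 26.2 FPKM, and its log2 fold change was -0.25 ± 0.05 (SE, adjusted p = 0.0065). The CDK6 share of the pair was 45.2 ± 2.34% in untreated and 48.2 ± 2.30% in treated libraries, with overlapping values. TSPAN31, on the opposite strand, shares 43.2% of the exon bases of CDK4. TSPAN31 itself measured 3.43 to 3.69 FPKM in untreated and 2.61 to 3.03 FPKM in treated libraries (log2 fold change -0.38 ± 0.08, SE, adjusted p = 0.0081), and the part of shared reads in either value was not tested.

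CDK4 is a known target of MYC, which binds the E-box CACGTG, and the stretch before its RefSeq start is shown for that reason. RefSeq promoter windows of 250 bases before a start (GRCh38.p14) matched 7 of the 10 genes, with 11 starts; CCND1, CCND2 and CCNE2 had no entry. They were searched on both strands for CACGTG (E-box), GGGCGG (GC box), TTTNNCGC (a loose E2F pattern), CCAAT (the NF-Y box), TGANTCA (AP-1), TTTGAA (the CHR element of mitotic promoters) and TGTTTAC (FOXO). None of these patterns contains another. Of the 7 genes CDK4 alone had an E-box, and its window held 3 of them, ending 210, 190 and 95 bases before the start. For RB1 the only window lay inside the gene (chromosome 13, 48476200 to 48476449). The windows of CDK4 (chromosome 12, 57752311 to 57752560), CDKN1B (chromosome 12, 12717118 to 12717367) and CCND3 also lay inside their genes. The stretches before the outermost starts of RB1 (48303726), CDK4 (57756013), CDKN1B (12715058) and CCND3 (42050357) were thus not searched. At least 1 E-box was found in 6.34% and at least 3 in 0.0797% of 35116 windows in the table. No window of the 7 genes held the E2F, CHR or FOXO pattern, found in 5.92%, 13.3% and 2.98% of all windows. The AP-1 pattern was found for RB1 alone, CCAAT for CCND3 and CDKN1B, and the GC box for every gene but RB1. Such shares are for single patterns and do not allow for the search over several patterns and genes. The CDK4 sites are given below with the E-box in capitals, on the strand of the gene (minus). They lie upstream of the RefSeq start and inside the GENCODE span of the gene. Which part of a longer transcript they fall in is not shown here.
CDK4 site at chr12:57752509-57752538: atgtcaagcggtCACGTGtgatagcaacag
CDK4 site at chr12:57752489-57752518: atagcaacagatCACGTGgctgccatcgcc
CDK4 site at chr12:57752394-57752423: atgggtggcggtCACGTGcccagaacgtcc
MYC itself measured 38.4 to 40.9 FPKM in untreated and 39.6 to 42.6 FPKM in treated libraries, with a log2 fold change of 0.01 ± 0.05 (SE, adjusted p = 0.91). A match is a description of letters, not evidence of binding.

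The CDK inhibitors of the list went opposite ways. CDKN1B, encoding p27 (ENSG00000111276, chromosome 12, 12715058 to 12722371), measured 14.4, 14.4 and 15.0 FPKM in untreated and 20.2, 19.6 and 19.5 FPKM in treated libraries. Both groups were tight and far apart relative to their spread (14.6 ± 0.340 against 19.8 ± 0.367 FPKM, SD, n = 3). The log2 fold change of CDKN1B was 0.36 ± 0.04 (SE, adjusted p = 4.3e-04). Its window held 2 CCAAT boxes, the element through which NF-Y is known to act on this gene, and 9.53% of all windows held at least as many. The sites are given with the box in capitals, on the plus strand, upstream of the RefSeq start and inside the GENCODE span of the gene. Which part of a longer transcript they fall in is not shown here.
CDKN1B site at chr12:12717182-12717210: tcacgcgaccagCCAATctcccggcggcg
CDKN1B site at chr12:12717306-12717334: ccgccgccgcaaCCAATggatctcctcct
CDKN2A (ENSG00000147889, chromosome 9, 21967753 to 21995301) measured 21.2, 20.7 and 19.4 FPKM in untreated and 14.7, 15.7 and 14.0 FPKM in treated libraries, again without overlap. Its log2 fold change was -0.53 ± 0.06 (SE, adjusted p = 2.6e-04). The value is for the whole gene, so the p16 and ARF transcripts cannot be told apart.

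The ratio of D-type cyclin FPKM to CDKN1B FPKM, which does not depend on scaling between libraries, was 3.23, 3.08 and 3.06 in untreated and 1.43, 1.39 and 1.49 in treated libraries. CCND1 alone stood at 0.614 ± 0.0462 and 0.259 ± 0.0222 of CDKN1B (SD, n = 3). CDKN1B per unit of CDK4 plus CDK6 was 0.234 ± 0.00976 and 0.382 ± 0.0169. For CDKN2A the same ratio was 0.327 ± 0.0114 and 0.287 ± 0.0249, and the groups did not overlap.

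The E-type cyclins, which partner CDK2 at the G1/S boundary, differed in their calls. CCNE2 (ENSG00000175305, chromosome 8, 94879770 to 94896678), the lowest of the 10 genes, measured 2.54, 2.30 and 2.51 FPKM in untreated and 3.71, 4.86 and 4.44 FPKM in treated libraries. All treated values were higher, and they were more spread than the untreated ones (SD 0.579 against 0.129 FPKM). The log2 fold change of CCNE2 was 0.72 ± 0.10 (SE, adjusted p = 9.4e-04), at percentile 97.7 of all genes tested. The library with the fewest fragments on CCNE2 had 246, a counting error of 6.38%. INTS8 on the opposite strand shares 37.0% of the exon bases of CCNE2. It measured 6.00 to 6.67 FPKM in untreated and 7.34 to 8.74 FPKM in treated libraries (log2 fold change 0.23 ± 0.07, SE, adjusted p = 0.034), and the part of shared reads in the CCNE2 value was not tested.

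CCNE1 (ENSG00000105173, chromosome 19, 29811898 to 29824308) measured 7.47, 8.63 and 8.56 FPKM in untreated and 9.54, 9.10 and 9.66 FPKM in treated libraries. The deposited values did not overlap, but after scaling the log2 fold change was 0.13 ± 0.06 (SE, 95% interval -0.01 to 0.27, adjusted p = 0.14). Without scaling factors it was 0.20 with adjusted p = 0.041, so the call for CCNE1 depends on the scaling. The difference between CCNE1 and CCNE2 was not tested. CCNE2 made up 23.0 ± 2.16% of the E-type sum in untreated and 31.4 ± 3.40% in treated libraries. The ratio of D-type to E-type cyclin FPKM was 4.28 ± 0.314 in untreated and 2.06 ± 0.106 in treated libraries (SD, n = 3).

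RB1 (ENSG00000139687, chromosome 13, 48303726 to 48599436) measured 18.7, 20.1 and 20.6 FPKM in untreated and 22.4, 25.8 and 22.1 FPKM in treated libraries. Phosphoramidon replicate 2 stood above the other two treated libraries. RB1 had a log2 fold change of 0.17 ± 0.07 (SE, 95% interval 0.02 to 0.32, adjusted p = 0.079). Without phosphoramidon replicate 3 it passed, at 0.22 with adjusted p = 0.042, and it also passed as deposited, at 0.24 with adjusted p = 0.021.

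**Figure D3:**
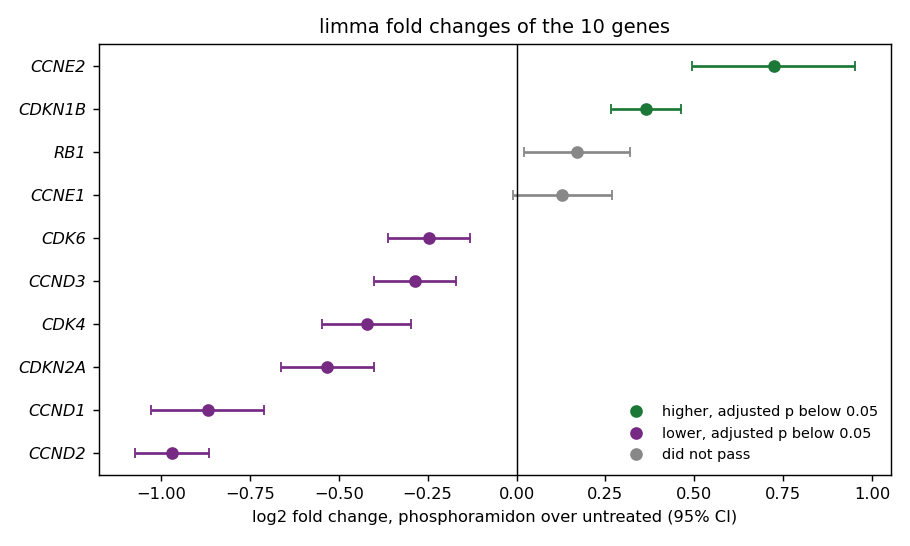
Log2 fold change (x axis, phosphoramidon over untreated, with its 95% confidence interval) of each of the 10 genes from the limma fit; purple marks genes called lower, green called higher and grey those that did not pass. The 6 purple genes run from -0.97 (CCND2) to -0.25 (CDK6), and the grey genes RB1 and CCNE1 lie at 0.17 and 0.13.

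The order of the 10 levels differed between the groups. In untreated cells it ran CDK4, CDK6, CCND2, CDKN2A, RB1, CDKN1B, CCND3, CCND1, CCNE1 and CCNE2, and the values of neighbours overlapped only for CDKN2A with RB1 and for CCND1 with CCNE1. In treated cells it ran CDK4, CDK6, RB1, CDKN1B, CDKN2A, CCND2, CCND3, CCNE1, CCND1 and CCNE2. There CDK4 overlapped CDK6, CDK6 overlapped RB1, CDKN2A overlapped CCND2, CCND3 overlapped CCNE1 and CCND1 overlapped CCNE2. CCND2 thus went from above CDKN1B (25.4 against 14.6 FPKM) to below it (13.6 against 19.8 FPKM), and CCND1 from level with CCNE1 to below it (5.11 against 9.43 FPKM). Among 12273 other genes with a symbol and a mean of at least 50 fragments, HLA-DMB, OTUB2, DKK3, KCNJ15 and TLL1 had the pattern most like CCND1, by Euclidean distance of centred log2 values over 6 libraries (0.07 to 0.15). CCND2 lay at 0.23 and CDKN2A at 0.49 from CCND1 on that measure. Such a distance takes in the difference between the groups, so genes with a fold change like that of CCND1 rank high. HLA-DMB, OTUB2, DKK3, KCNJ15 and TLL1 had log2 fold changes of -0.89, -0.88, -0.87, -0.82 and -0.77, against -0.87 for CCND1. Shared regulation was not tested.

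The other genes of the pathway were read from lists chosen by gene function, with earlier results of these data known. No set test was run, and the counts below only describe these lists. Counts are of genes tested and called, and each stands against 15.6% higher and 18% lower among all genes. Of 12 RB-related and E2F genes, 5 were higher and 1 lower, with a median log2 fold change of 0.04. E2F1, an activator of S-phase genes, rose from 9.66 ± 0.539 to 15.4 ± 1.29 FPKM (log2 fold change 0.59), and E2F7, a repressor of the same family, from 4.62 ± 0.313 to 8.33 ± 0.110 FPKM (0.77). RBL1, the RB relative p107, rose from 8.49 ± 0.0988 to 11.5 ± 0.725 FPKM (0.37) and E2F2 from 0.917 ± 0.0756 to 1.46 ± 0.123 FPKM (0.55). E2F8 (0.46) was the other that rose, and E2F4 (-0.21), the repressor-type E2F of resting cells, the one that fell; these 2 were chosen for naming with values known. RBL2, the relative p130, had a log2 fold change of 0.06 ± 0.04 (SE, adjusted p = 0.29). The number lower was 2 without phosphoramidon replicate 1.

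All 6 other CDKN genes, listed here as CDK inhibitors, were called, 4 higher and 2 lower (median 0.41). CDKN2C, the CDK4/6 inhibitor p18, rose from 3.11 ± 0.403 to 5.73 ± 0.540 FPKM (0.79), CDKN3 from 10.6 ± 0.422 to 18.2 ± 1.86 FPKM (0.69) and CDKN1A, the p53-induced inhibitor p21, from 29.03 ± 1.04 to 35.2 ± 0.880 FPKM (0.21). CDKN2D (0.61), named after its value was seen, rose too. CDKN1C, the inhibitor p57, fell from 30.2 ± 0.695 to 20.6 ± 0.388 FPKM (-0.62). CDKN2B (-0.36), the neighbour and relative of CDKN2A, was named after its value was seen and fell as well, from 8.35 to 8.66 FPKM in untreated to 6.39 to 7.93 FPKM in treated libraries.

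Of 11 genes for later cyclins, CDKs and their regulators, 8 were higher and 0 lower (median 0.29). The 8 include WEE1 (0.22) and PKMYT1 (0.35), kinases that inhibit CDK1, as well as the activator CDC25B (0.29); these were chosen for naming with values known. CCNA2, the S and G2 cyclin, rose from 24.9 ± 1.53 to 42.6 ± 1.24 FPKM (0.70), CDK1 from 22.2 ± 1.82 to 34.9 ± 1.43 FPKM (0.58), and the CDK-activating phosphatases CDC25A and CDC25C by 0.40 and 0.88 on the log2 scale. CDK2, the partner of the E-type cyclins, named after its value was seen, rose from 17.4 ± 0.288 to 21.4 ± 0.791 FPKM (0.23). The CDK-activating kinase genes CDK7, CCNH and MNAT1 had log2 fold changes of -0.15, -0.16 and 0.08 and did not pass.

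Of 17 E2F-regulated genes of G1/S, 13 were higher and 0 lower (median 0.29). The polymerase clamp PCNA rose from 136 ± 0.953 to 182 ± 4.75 FPKM (0.35), CLSPN of the replication checkpoint from 8.503 ± 0.376 to 13.2 ± 1.08 FPKM (0.56), and DSCC1 and EZH2 by 0.44 and 0.35. Of 14 mitotic genes, 12 were higher and 0 lower (median 0.52). The proliferation marker MKI67 rose from 33.9 ± 1.71 to 64.4 ± 5.31 FPKM (0.85), AURKA from 37.2 ± 0.954 to 54.2 ± 0.365 FPKM (0.47), CCNB1 from 41.9 ± 0.944 to 61.7 ± 1.501 FPKM (0.49) and UBE2C from 49.0 ± 1.16 to 75.2 ± 3.05 FPKM (0.55). CENPF and CENPE, the members that did not pass, varied more between libraries than the rest. CENPF measured 14.2, 22.7 and 19.9 FPKM in untreated and 24.6, 31.5 and 42.0 FPKM in treated libraries.

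Of 8 genes of the DREAM and MuvB complexes, which repress or activate cell cycle promoters with RB relatives, 5 were higher and 1 lower (median 0.26). FOXM1 rose from 16.9 ± 0.615 to 27.9 ± 1.24 FPKM (0.65), LIN54 from 5.91 ± 0.0586 to 8.95 ± 0.184 FPKM (0.52) and MYBL2 from 85.8 ± 3.51 to 110 ± 1.76 FPKM (0.29). RBBP4 (-0.22) was the one that fell, and LIN9 (0.29) and LIN52 (0.24), named after their values were seen, rose. The number higher was 3 without untreated replicate 1 or 2 or phosphoramidon replicate 1 or 2. Of 13 genes of ubiquitin ligases that degrade cyclins and p27, 3 were higher and 2 lower (median 0.01), a share near that of all genes. CKS1B, the cofactor of p27 degradation, rose (0.26), as did FBXW7 (0.23), which targets cyclin E, named after its value was seen. SKP2 (0.16), which targets p27, passed narrowly (adjusted p = 0.037), and its call was lost without untreated replicate 1 or 3 or phosphoramidon replicate 1 or 2 (adjusted p up to 0.10). CUL4A (-0.24) and FBXO4 (-0.58) fell. Without untreated replicate 1 FBXO4 kept a log2 fold change of -0.51 but lost its call (adjusted p = 0.057). The number higher was 1 without phosphoramidon replicate 1 or 2, and the number lower 1 without untreated replicate 1.

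Of 19 transcription factor genes known to act on the CCND1 promoter, 3 were higher and 4 lower (median -0.07), again near the share of all genes. The AP-1 subunit FOSL2 fell from 102 ± 3.68 to 81.4 ± 1.88 FPKM (-0.40) and ETS2 from 4.54 ± 0.151 to 3.90 ± 0.214 FPKM (-0.28). YAP1 (-0.20) and FOS (-0.50), also named with values known, were the others that fell. TEAD1 (0.32) and STAT3 (0.24) rose, as did TEAD4 (0.23), named after its value was seen. CTNNB1, JUN and FOSL1 had log2 fold changes of -0.03, -0.14 and -0.13 and did not pass.

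**Figure D4:**
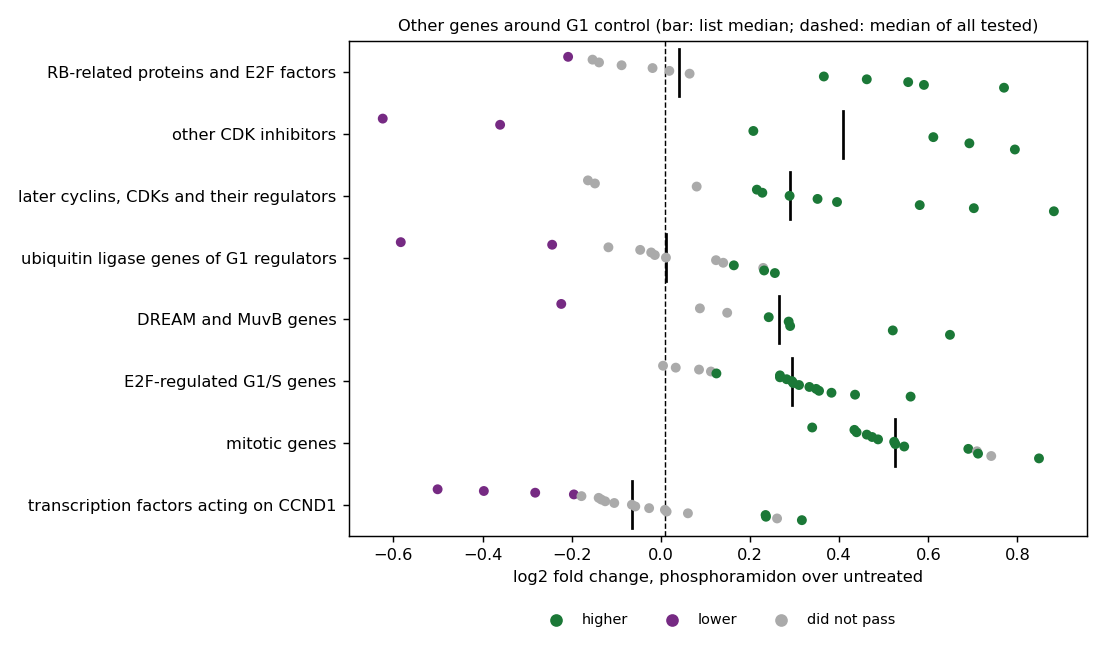
Log2 fold change (x axis, phosphoramidon over untreated) of each tested gene in 8 lists around G1 control; green and purple points were called higher and lower, grey points did not pass, black bars are list medians and the dashed line is the median of all genes tested (0.01). The points of the mitotic list all lie to the right of 0, with a median of 0.52, while the lists of ubiquitin ligase genes and of factors acting on CCND1 straddle 0.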

How the data were processed

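The 10 genes and all lists were chosen with earlier results of these data known. The authors deposited FPKM per Ensembl gene ID for each library. The submitters' processing notes name the GRCh38 build, HISAT2 2.1.0, featureCounts 1.6.0, Trimmomatic 0.38 and DESeq2 1.22.1, with no role or order; strand use is not given in the sources used here. Gene names and positions came from a name table (37892 IDs matched) and GENCODE 29. FPKM times length gave whole fragments within 0.05 for 79.2% of 34623 genes above 0 at the GENCODE 29 merged exon length; for the rest, CCND2, CCNE1, CDK4 and CDKN1B among them, a length giving whole fragments was searched. Genes with at least 10 fragments in at least 3 libraries were tested with limma 3.58.1 (R 4.3.3; trended, robust prior; group only) on log2(FPKM / factor + 0.1), with TMM factors (30% and 5% trimmed; 0.964 to 1.04). The pseudocount makes fold changes of low genes too small. Printed FPKM are unscaled. Named genes are the 10, up to 4 called genes per list with the lowest p-values, and the 5 most like CCND1; all other genes given with values, those that did not pass included, were chosen with values known. The fit was tested on simulated data with equal numbers of genes raised and lowered. Such data cannot show whether the scaling suits these libraries.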

Additional observations from a re-analysis of the deposited data

How the results depend on the processing

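The 8 calls among the 10 genes kept direction and side of the threshold in all 15 alternatives run, with the highest adjusted p at 0.042, for CDK6. CCNE1 passed as deposited (0.20, adjusted p = 0.041; range over alternatives 0.041 to 0.35). RB1 passed as deposited (0.24), with at least 50 fragments in all libraries (0.17, adjusted p = 0.038) and with voom on the recovered fragments (0.17, adjusted p = 0.022), and ran from 0.10 to 0.22 when 1 library was left out (adjusted p 0.042 to 0.22). Of all genes, 5433 passed (2529 higher, 2904 lower); without a filter 3545 did (1379 higher), and as deposited 3647 were higher and 2169 lower, with the median of all genes at 0.07. Beyond 1.5-fold, 130 passed, against 68 with a pseudocount of 1, 70 without a filter, 250 with voom, and 85 (without untreated replicate 2) to 137 when 1 library was left out. Without a filter, 2 other CDK inhibitors were higher, 3 DREAM genes higher, and 1 ubiquitin ligase gene higher and 1 lower. The last list had 5 higher as deposited and 5 with voom; voom gave 2 E2F genes lower, and limma without its trended, robust prior 3 DREAM genes higher. With 1 library left out, E2F genes lower numbered 1 to 2, DREAM genes higher 3 to 5, and ubiquitin ligase genes 1 to 2 higher and 1 to 3 lower. The difference of D-type sums was -17.2 FPKM, or -19.1 with scaled values, and that of E-type sums 3.10 or 2.50 FPKM. Causes were not tested. In the titles, same-numbered replicates of the groups share only a number. Correlations of their deviations were 0.11, -0.02 and -0.01, and not every library correlated best with its own number. With so few libraries these values cannot show whether a batch was shared. The replicate block gave 5453 calls and changed none among the 10 genes (CCND1 -0.87, adjusted p = 4.6e-04). The exact permutation test cannot pass the threshold and was not used as an alternative. Of the other named genes, CDKN1A (0.19, adjusted p = 0.055), FBXO4 (-0.60, adjusted p = 0.074) and SKP2 (0.15, adjusted p = 0.13) lost their calls without a filter, and SKP2 also with limma without its trended, robust prior (0.16, adjusted p = 0.083).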
